A study of Homo sapiens with 4 samples.

Results

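Glycolysis and pyruvate metabolism were followed through 34 genes that encode glucose transporters, glycolytic enzymes, lactate enzymes and transporters, and the enzymes and carriers that handle pyruvate. The genes were listed by function rather than by a cut on their values, though with earlier results of these data known. All 34 were found by symbol among the 58812 Ensembl genes listed. The cells were A549, an established human lung carcinoma epithelial line, sampled 24 hr after transfection with 1 µg of plasmid. The plasmid was SAMD9-Myc-DDK, encoding tagged SAMD9, in 2 libraries and pCMV6-Entry, the empty vector, in 2 others. Both groups were wild-type A549 cells, both went through transfection, and no untransfected cells are among the libraries. Interferon induces SAMD9, which restricts poxviruses, and the comparison asks how its overexpression alters gene expression. Whether replicates came from separate cultures is not stated, so the spread behind each p-value is that of these libraries and may be technical. The RNA is from bulk cultures, in which fewer expressing cells and less RNA per cell cannot be told apart.

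Glycolysis splits glucose into pyruvate in the cytosol. Pyruvate is then either reduced to lactate and exported or carried into mitochondria and turned into acetyl-CoA by the pyruvate dehydrogenase complex. Flux is set mainly at hexokinase, phosphofructokinase and pyruvate kinase, and at pyruvate dehydrogenase, which kinases of the PDK family switch off and phosphatases such as PDP1 switch on. Tumour lines such as A549 typically make much lactate even with oxygen present.

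The libraries held between 29301854 and 39670083 counts. SAMD9 had 5903 and 6439 TMM-normalised counts per 1000000 (CPM) in the SAMD9 libraries, against 14.2 and 11.9 in the empty vector libraries, which matches the labels. Of 11 markers of lung epithelium, KRT8, KRT18 and CDH1 exceeded 1000 counts in every library. EPCAM (159 to 216 counts) and CLDN4 (116 to 182 counts) were low, as were NAPSA (28 to 75 counts) and SFTPB (2 to 38 counts). KRT19, NKX2-1, SFTPA1 and SFTPC had at most 10 counts in any library. The 6 endothelial markers summed to 0.724 and 1.01 CPM with SAMD9 and to 0.639 and 0.508 CPM with empty vector, and the 8 leukocyte markers to 6.57 and 6.60 CPM with SAMD9 and to 5.75 and 5.56 CPM with empty vector. Most of the leukocyte sum came from ITGAM, with 142 and 122 counts with SAMD9 and 90 and 118 with empty vector, and from CD14. CD14 had 99 and 60 counts with SAMD9 and 88 and 67 with empty vector. PTPRC, the leukocyte marker CD45, was at 0 in 3 libraries and had 3 counts in SAMD9 replicate 2, and CD3D was at 0 in all 4. The 6 fibroblast markers summed to 6.33 and 6.39 CPM with SAMD9 and to 1.79 and 2.84 CPM with empty vector, with COL1A1 at 194 of 236 and 160 of 183 counts with SAMD9, against 45 of 56 and 70 of 95 counts with empty vector, while DCN was at 0. COL1A1 was called higher (3.04-fold), as were the epithelial markers CDH1 (1.85-fold) and KRT8 (1.32-fold), while no other marker tested was called. The part of fibroblast markers in the results below was not tested.

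Of the 34 genes, 23 did not pass the test and 11 did. With SAMD9, the hexokinase gene HK2 was 3.27-fold higher, the pyruvate dehydrogenase phosphatase gene PDP1 2.79-fold, PFKFB4 1.85-fold and the phosphoglycerate mutase gene PGAM1 1.53-fold higher. In contrast, PFKFB3 and PFKFB2 fell to 0.720 and 0.771 of their empty vector levels. Smaller rises were seen in PKM, SLC16A1, ALDOA, PGK1 and GAPDH, none above 1.26-fold. In all, 9 of 34 members were higher and 2 lower (edgeR, quasi-likelihood F-test, with p adjusted over 19814 genes and calls made below 0.05), or 32.4% of the members, against 27.5% of all genes tested. Higher calls made up 26.5% of the members, against 15.3% of all genes, and lower calls 5.88%, against 12.2%. DESeq2 gave the same 9 and 2, against 13.3% and 9.45% of all genes. With a further limit of 0.5 on the log2 scale in either direction, 4 members were called, HK2, PDP1, PFKFB4 and PGAM1, against 15.1% of all genes. The share of members called was thus near the background, and the median log2 fold change of the members was 0.11, beside -0.01 for all genes tested.

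The split of these calls depended on how libraries were scaled. When library totals replaced TMM, the median of all genes moved by -0.19 on the log2 scale, and then 5 members were higher and 11 lower, against 9.96% and 28.5% of all genes. The 6 members HK2, PDP1, PFKFB4, PGAM1, PKM and PFKFB3 were called in the same direction under all 9 alternatives tried (other scalings, DESeq2, no filter, the replicate number as a block, and each library left out). Without empty vector replicate 2, the median log2 fold change of the members was 0.14, beside 0.01 for all genes tested. Without empty vector replicate 1 the members' median was 0.06, also beside 0.01. GPI, PFKL, PFKP, TPI1, ENO1, LDHA and SLC16A3 each had a larger rise without empty vector replicate 2 than with all libraries. Without SAMD9 replicate 2, 1 member was lower, and over all genes 1466 were lower, against 2420 with all libraries.

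**Figure D1:**
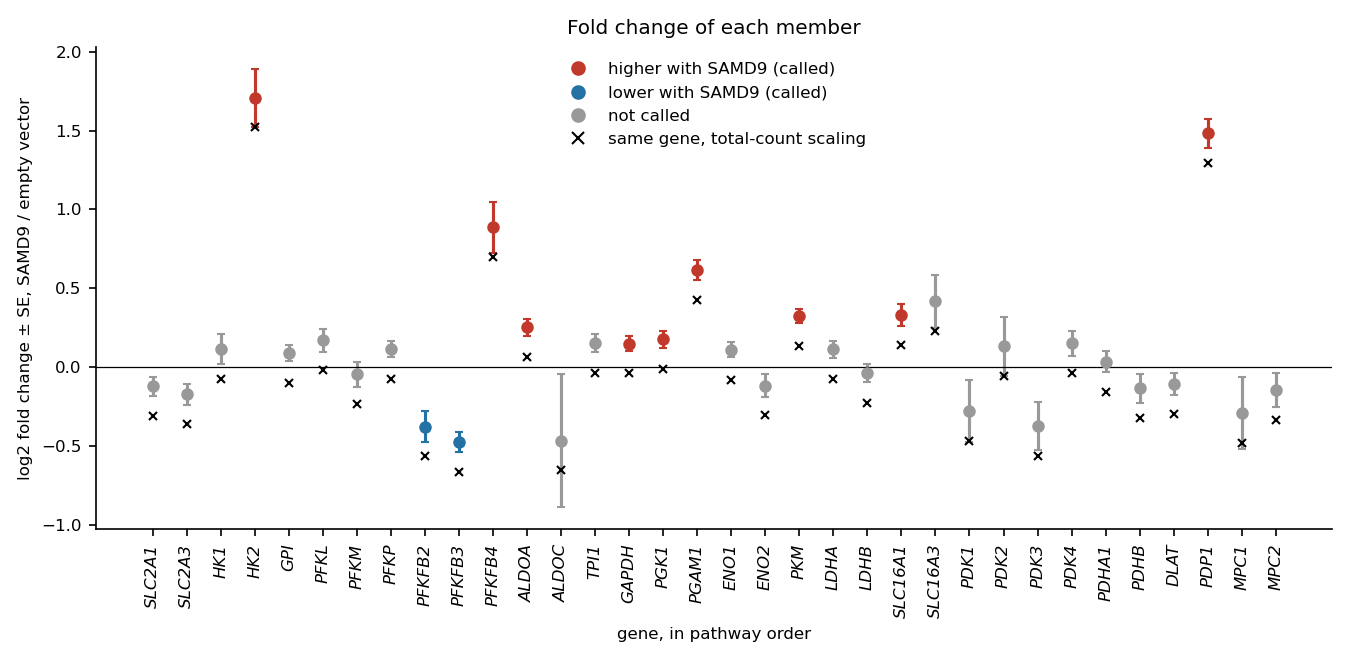
Log2 fold change of each of the 34 members with its SE, in pathway order, with the total-count value of the same gene as a cross. HK2 (1.71) and PDP1 (1.48) stand above the others, PFKFB3 (-0.47) is the lowest called gene, and every cross lies below its circle.

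The members spanned a wide range of expression. Per kilobase of listed gene length, the level with empty vector ran between 0.467 CPM for ALDOC and 635.5 CPM for GAPDH. The 3 highest were GAPDH, ENO1 and PKM, with 705, 559 and 484 CPM per kilobase with SAMD9 and 635.5, 518 and 387 with empty vector. At the low end with empty vector were SLC16A3, HK2, PDK1 and ALDOC, all under 0.75 CPM per kilobase, so the gene with the largest fold change was among the least abundant. Summed over the 34 genes, the raw counts were 1.56% of each SAMD9 library, against 1.54% and 1.64% of the empty vector libraries, so the groups overlapped in this share. After TMM scaling the sum was 16627 and 16796 CPM with SAMD9, against 14449 and 15373 CPM with empty vector.

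**Figure D2:**
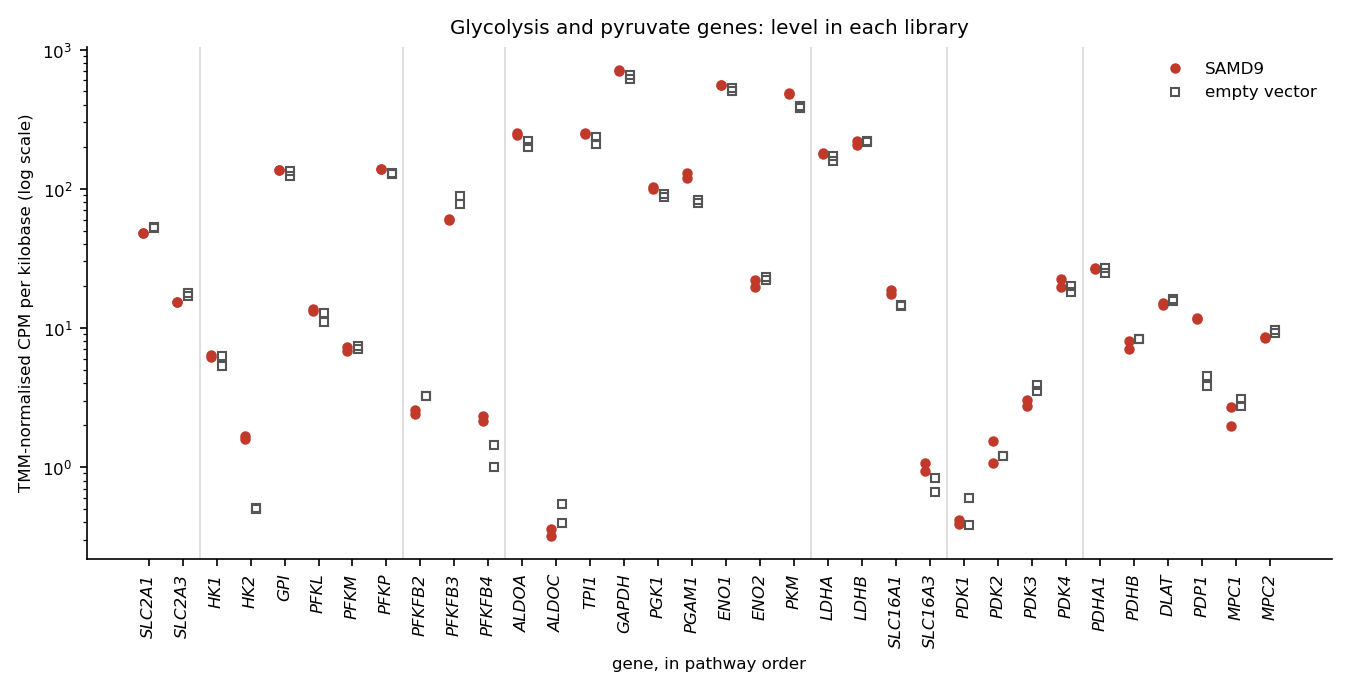
TMM-normalised CPM per kilobase of listed gene length (log scale) for the 34 members in each library, SAMD9 as filled circles left of empty vector as open squares. GAPDH, ENO1 and PKM lie highest, ALDOC, PDK1 and HK2 lowest with empty vector, and the gap between groups is widest for HK2 and PDP1.

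Glucose enters through transporters of the SLC2A family. SLC2A1, the ubiquitous transporter GLUT1, had 203.3 and 203.8 CPM with SAMD9, against 219 and 223.5 CPM with empty vector (log2 fold change -0.12, SE 0.06, edgeR adjusted p = 0.145). SLC2A3, the high-affinity transporter GLUT3, had 95.0 and 94.3 CPM with SAMD9, against 104 and 109 CPM with empty vector (-0.17, SE 0.07, adjusted p = 0.0650). Both were lower in each SAMD9 library than in either empty vector library, yet neither passed the test in edgeR or DESeq2, and 1 of them had an unadjusted p below 0.05. Both were called lower under total-count scaling (-0.31 and -0.36) and upper-quartile scaling (-0.19 and -0.24), and SLC2A3 also without empty vector replicate 1 (-0.20).

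Hexokinase traps glucose in the cell by phosphorylating it. HK2, the inducible isoform that binds mitochondria, lies at chromosome 2, 74833981 to 74893359 (GRCh38). It had 381 and 277 counts in the SAMD9 libraries, against 96 and 101 in the empty vector libraries. Its level was 10.2 and 9.675 CPM with SAMD9, against 3.07 and 3.02 CPM with empty vector, and the log2 fold change was 1.71 (SE 0.18, edgeR adjusted p = 1.28e-07). Both SAMD9 libraries lay about 3 times above both empty vector libraries. Under the alternatives the value ran between 1.52 and 1.75. HK1, the housekeeping isoform, had 37.3 and 39.0 CPM with SAMD9, against 32.2 and 38.2 CPM with empty vector, (0.11 on the log2 scale, SE 0.10, adjusted p = 0.434), and was -0.07 under total-count scaling.

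The balance between the isoforms could be read within each library, where scaling plays no part. HK2 made up 21.5% and 19.9% of HK1 plus HK2 counts per kilobase with SAMD9, against 8.72% and 7.33% with empty vector. The mean difference was 12.7 percentage points and the groups did not overlap, although an exact permutation test of 2 libraries against 2 cannot give a two-sided p below 0.333. HKDC1, a further hexokinase gene next to HK1 on chromosome 10 and not one of the 34, was the most abundant of the family. It fell to 122 and 109.6 CPM with SAMD9, against 169.9 and 169.5 CPM with empty vector (log2 fold change -0.55, SE 0.07, adjusted p = 9.77e-07). With HKDC1 counted in, HK2 made up 4.62% and 4.73% of the family with SAMD9, against 1.11% and 1.07% with empty vector, and HKDC1 78.5% and 76.2%, against 87.3% and 85.4%. HK2 therefore remained the smallest part of the family in every library.

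GPI, which converts glucose 6-phosphate, and the phosphofructokinase genes were not called. PFKP, the platelet-type isoform, made up 86.9% and 87.4% of phosphofructokinase counts per kilobase with SAMD9, against 87.5% and 86.5% with empty vector. Its level was 672.01 and 672.00 CPM with SAMD9, against 613 and 627.5 CPM with empty vector (log2 fold change 0.12, SE 0.05, adjusted p = 0.115). PFKL, the liver-type gene, was at 0.17 (SE 0.07), PFKM, the muscle-type gene, at -0.04 (SE 0.08) and GPI at 0.09 (SE 0.05). Total-count scaling turned PFKP, PFKL and GPI below 0. PFKM shares 8.62% of its exonic length with SENP1 on the opposite strand.

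The PFKFB enzymes make and break the bisphosphate that activates phosphofructokinase. PFKFB3, the isoform with strong kinase activity in proliferating cells, lies at chromosome 10, 6144934 to 6235545. It had 332 and 326 CPM with SAMD9, against 427 and 487 CPM with empty vector, or -0.47 on the log2 scale (SE 0.06, adjusted p = 2.98e-06). Both SAMD9 libraries lay below both empty vector libraries. PFKFB2, known as the heart isoform, had 26.4 and 24.6 CPM with SAMD9, against 33.1 and 33.1 CPM with empty vector (-0.38, SE 0.10, adjusted p = 0.00519). That call was lost without SAMD9 replicate 2 (adjusted p = 0.0976). PFKFB4, known as the testis isoform, lies at chromosome 3, 48517684 to 48562015, and went the other way. It had 14.2 and 13.2 CPM with SAMD9, against 8.73 and 6.10 CPM with empty vector (0.89, SE 0.16, adjusted p = 0.000191). The empty vector replicates of PFKFB4 differed more from each other than the SAMD9 replicates did, and the value ran between 0.65 and 1.17 under the alternatives. PFKFB4 made up 3.55% and 3.37% of the family with SAMD9, against 1.73% and 1.07% with empty vector, while PFKFB3 made up 92.5% and 92.9%, against 94.3% and 95.4%. The summed level of the family was 372 and 364 CPM with SAMD9, against 469 and 526 CPM with empty vector, so PFKFB3 set the direction of the sum. PFKFB4 shares 4.73% of its exonic length with UCN2 on the same strand, and PFKFB2 shares 3.09% with YOD1 on the opposite one.

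**Figure D3:**
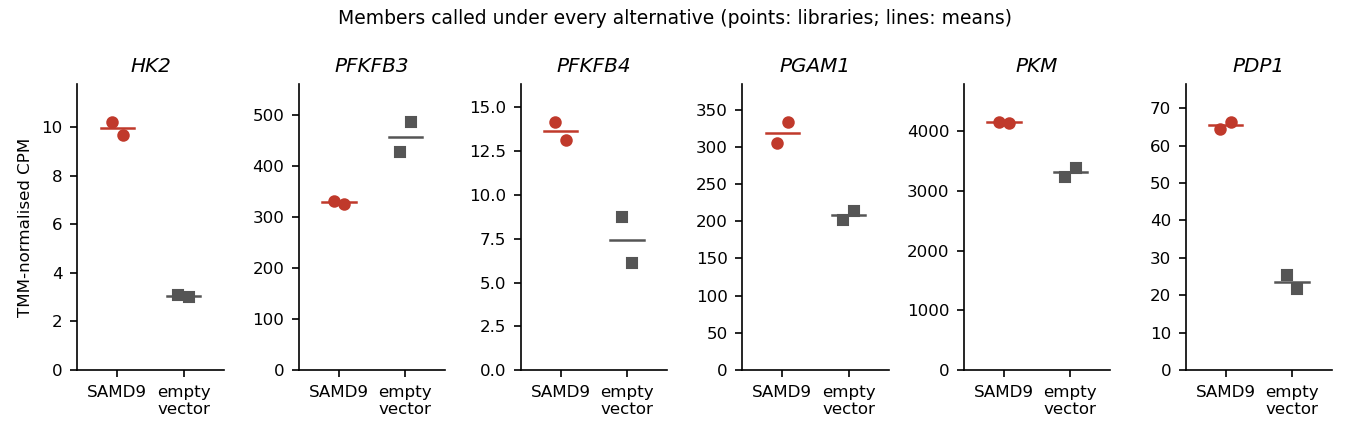
TMM-normalised CPM of the 6 members called under all 9 alternatives, with each library as a point and group means as lines, SAMD9 left of empty vector. PFKFB3 is the only one lower with SAMD9, and in all 6 panels the groups do not overlap.

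Lower glycolysis holds the most abundant genes of the set, and 5 of its 9 genes were higher (55.6%, against 15.3% of all genes tested), a difference that was not tested. PGAM1, phosphoglycerate mutase, lies at chromosome 10, 97426160 to 97433441. It had 305 and 334 CPM with SAMD9, against 202 and 214.5 CPM with empty vector (log2 fold change 0.62, SE 0.06, adjusted p = 5.85e-08), and was the strongest mover of this stretch. The 13 PGAM1 pseudogenes listed held 146 and 133 counts with SAMD9 and 151 and 102 with empty vector, at most 2.39% of the PGAM1 count in a library. Of the 31-base words in PGAM1 transcripts, 35.7% also occur in other genes, so some division of reads is possible. Among the other called members this share was 53.6% for ALDOA, 29.1% for GAPDH, 15.5% for HK2 and 12.9% for PGK1. For the rest of the called members it was at most 4.24% (PFKFB4).

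PKM, pyruvate kinase M, makes pyruvate in the last step of glycolysis. It had 4157 and 4135 CPM with SAMD9, against 3239 and 3389 CPM with empty vector (log2 fold change 0.32, SE 0.04, adjusted p = 6.06e-06). The SAMD9 libraries exceeded both empty vector libraries, and the fold change was 0.13 under total-count scaling (adjusted p = 0.0183). Gene counts do not separate the splice forms PKM1 and PKM2. ALDOA, the main aldolase, had 1508 and 1558 CPM with SAMD9, against 1219.9 and 1353 CPM with empty vector (0.25, SE 0.05, adjusted p = 0.00102), and was not called under total-count scaling (0.06, adjusted p = 0.373).

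PGK1, phosphoglycerate kinase, had 539.6 and 559 CPM with SAMD9, against 476 and 496 CPM with empty vector (0.18, SE 0.06, adjusted p = 0.0188). GAPDH, glyceraldehyde phosphate dehydrogenase and a common reference gene, had 2088 and 2116 CPM with SAMD9, against 1825 and 1963 CPM with empty vector (0.15, SE 0.05, adjusted p = 0.0262). Both calls were fragile. They were lost under upper-quartile scaling and without SAMD9 replicate 1 or 2, and the values were -0.01 for PGK1 and -0.04 for GAPDH under total-count scaling. The 65 GAPDH pseudogenes held between 5.33% and 6.03% as many counts as GAPDH.

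TPI1, triosephosphate isomerase, at 0.15 (SE 0.06, adjusted p = 0.0580), and the enolase gene ENO1, at 0.11 (SE 0.05, adjusted p = 0.0943), did not pass. Both were higher in each SAMD9 library than in either empty vector library, and both fell below 0 under total-count scaling. ENO1 had 2205 and 2217 CPM with SAMD9, against 2000.4 and 2098 CPM with empty vector. ENO2, the neuronal enolase gene, was at -0.12 (SE 0.07, adjusted p = 0.263), and it made up 3.43% and 3.79% of enolase counts per kilobase with SAMD9, against 4.22% and 4.17% with empty vector. ALDOC, the brain aldolase gene, had between 30 and 53 counts in a library and a log2 fold change of -0.46 (SE 0.42), so a change of this size was not detectable at this depth.

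Lactate dehydrogenase converts pyruvate to lactate, and the SLC16A transporters carry lactate across the membrane. LDHA had 1099 and 1127 CPM with SAMD9, against 983 and 1074 CPM with empty vector (log2 fold change 0.11, SE 0.05, adjusted p = 0.130), and LDHB 616 and 654 CPM with SAMD9, against 642 and 660.1 CPM with empty vector (-0.04, SE 0.05, adjusted p = 0.681). Neither gene was called. LDHA made up 46.2% and 45.3% of the pair per kilobase with SAMD9, against 42.4% and 43.9% with empty vector, a mean difference of 2.61 percentage points with no overlap. SLC16A1, the transporter MCT1, had 93.7 and 100.1 CPM with SAMD9, against 77.6 and 76.3 CPM with empty vector (0.33, SE 0.07, adjusted p = 0.000912), and was not called under total-count scaling (0.14, adjusted p = 0.114). It overlaps SLC16A1-AS1 on the opposite strand over 175 exonic bases. SLC16A3, the hypoxia-linked exporter MCT4, was at 0.42 (SE 0.17, adjusted p = 0.0737) with 187 to 314 counts a library.

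At the entry of pyruvate into mitochondria, 1 gene of 10 was called, against 27.5% of all genes tested. With so few genes, this count alone says little about the step. PDP1, the phosphatase subunit that reactivates pyruvate dehydrogenase, lies at chromosome 8, 93857807 to 93926066. It had 2405 and 1901 counts in the SAMD9 libraries, against 791 and 722 in the empty vector libraries. Its level was 64.5 and 66.4 CPM with SAMD9, against 25.3 and 21.6 CPM with empty vector, or 1.48 as log2 fold change (SE 0.09, adjusted p = 1.08e-11). PDP1 had the lowest p of the 34 genes, and none of its 31-base words occurs in another gene. Under the alternatives the value was never below 1.29.

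Of the 4 kinases that oppose PDP1, 0 were called with TMM scaling in edgeR over all 4 libraries or in DESeq2. Over all genes tested, 27.5% were called in edgeR and 22.8% in DESeq2. Among the kinases 1, PDK3, had an unadjusted edgeR p below 0.05. PDK4, the most abundant of them per kilobase, had 102.3 and 89.0 CPM with SAMD9, against 90.2 and 82.2 CPM with empty vector (log2 fold change 0.15, SE 0.08, adjusted p = 0.163). PDK1, the hypoxia-linked kinase, was at -0.28 (SE 0.20), PDK2 at 0.13 (SE 0.19) and PDK3 at -0.37 (SE 0.15, adjusted p = 0.0795). PDK3 was called lower under upper-quartile scaling (-0.44, adjusted p = 0.0360) and total-count scaling (-0.56, adjusted p = 0.00601). PDK4 was called higher when empty vector replicate 1 was left out (0.22, adjusted p = 0.0223), and its value was -0.04 under total-count scaling. PDK4 made up 82.8% and 81.5% of the family per kilobase with SAMD9, against 79.0% and 76.8% with empty vector, a mean difference of 4.26 percentage points. The empty vector replicates of PDK1 had 8.89 and 5.74 CPM, and without replicate 2 PDK1 was called lower (-0.56, adjusted p = 0.0281). PDK2 shares 38.6% of its exonic length with SAMD14 on the opposite strand, which had at most 34 counts in a library.

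The 5 members that encode subunits of the pyruvate dehydrogenase complex and the pyruvate carrier were not called with TMM scaling in edgeR over all 4 libraries. Of all genes tested, 27.5% were called in that fit. PDHA1, the catalytic alpha subunit, had 120.6 and 118 CPM with SAMD9, against 112 and 121 CPM with empty vector (log2 fold change 0.03, SE 0.07). PDHB, the beta subunit, was at -0.13 (SE 0.09), DLAT, the acetyltransferase core, at -0.10 (SE 0.07), and the carrier subunits MPC1 and MPC2 at -0.29 (SE 0.23) and -0.14 (SE 0.11). None of these 5 passed, with adjusted p between 0.315 for DLAT and 0.772 for PDHA1. PDHB, DLAT and MPC2 were called lower under total-count scaling, at -0.32, -0.29 and -0.33. On the opposite strand, MPC2 shares 22.5% of its exonic length with DCAF6, which had 1308 to 1674 counts a library. PDHA1 likewise shares 21.3% with MAP3K15, which had 247 to 441 counts. Whether PDP1 moved more than these subunits or the opposing kinases was not tested.

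**Figure D4:**
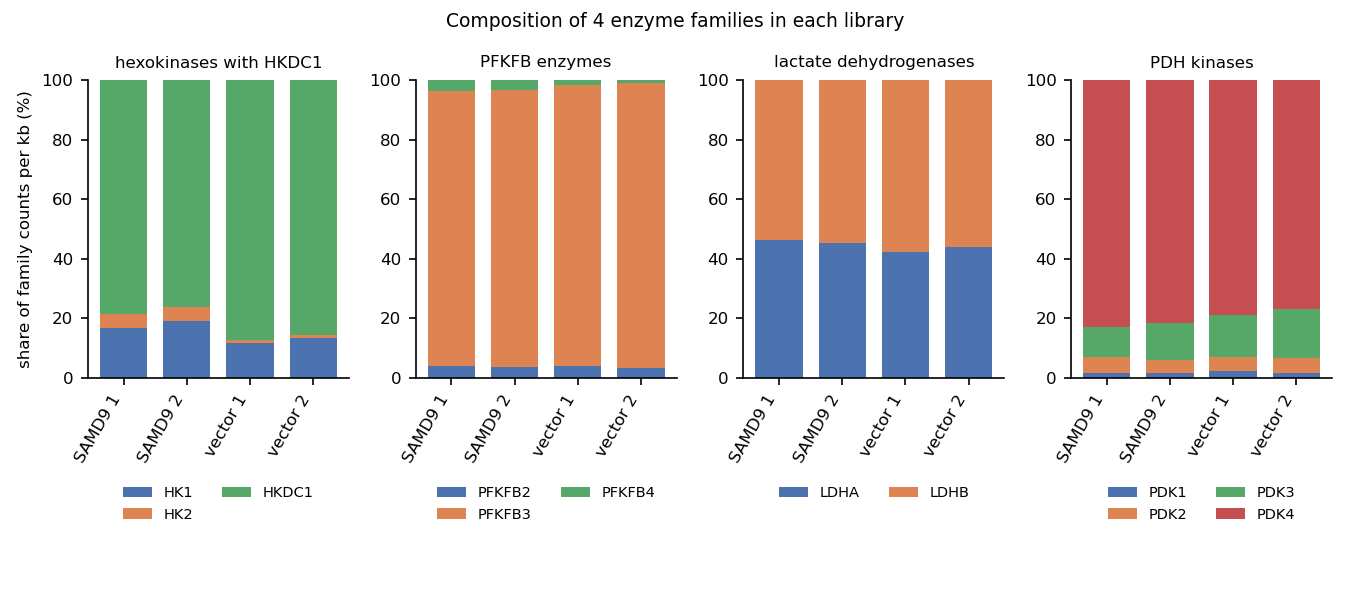
Share of each gene in the counts per kilobase of 4 enzyme families (stacked bars summing to 100%), for the SAMD9 libraries left of the empty vector libraries. HK2 takes 4.62% and 4.73% with SAMD9 and 1.11% and 1.07% with empty vector, while HKDC1, PFKFB3 and PDK4 dominate their families in every library.

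Groups did not overlap for 27 of the 34 members (79.4%), 16 of them higher and 11 lower with SAMD9. Over all genes tested, the groups did not overlap for 62% in TMM-normalised CPM, so this count alone says little about the members. All 11 called members were among the 27. The 23 members not called had log2 fold changes between -0.46 and 0.42.

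Promoter sequence was looked at for the members, called or not. Many glycolytic genes carry the core letters ACGTG, which hypoxia-inducible factors bind. These letters often stand in the palindrome CACGTG, which MYC and MAX also bind. RefSeq promoter windows of GRCh38.p14, 250 bases before to 50 after a start, were found for 30 of the 34 members (60 windows), and none was listed for SLC2A3, SLC16A1, PFKFB2 and PDP1. On either strand, ACGTG stood in 36.7% of the members' windows, against 21.4% of all 35093 windows, and CACGTG, which contains it, in 13.3%, against 7.26%. Counted by gene, windows with ACGTG were found for 18 of the 30 members, and no such share by gene was counted over all genes. Among them were 4 of the 7 higher members with a window and PFKFB3, the only lower member with one. The rest of the 18, such as GPI, LDHA, ENO2 and DLAT, were not called. The letters thus occurred in members that rose, in 1 that fell and in members that were not called. The higher members with a window but without these letters were PFKFB4, PGAM1 and PKM. Of the other motifs searched on both strands, TTCNNNGAA, the core bound by STAT factors, stood in 3.33% of members' windows, against 7.66% of all. An interferon-stimulated response element core stood in 3.33%, against 3.58%, and a loose NF-kappaB site in 83.3%, against 58.7%. Base composition was not matched, and a match is only a match of letters. Shown here, 5′ to 3′ with ACGTG or its complement in capitals, are windows of 4 members that hold it. HK2 and PFKFB3 had 2 windows each, and the 1 shown was picked for its number of matches. The HK2 window (chr2:74834920-74835219, plus strand) has CACGTG at 2 places. The others are of PGK1 (chrX:78103998-78104297, plus strand), GAPDH (chr12:6535014-6535313, plus strand) and PFKFB3 (chr10:6202682-6202981, plus strand), which fell. All 4 RefSeq starts lie inside the listed gene. Their distance from its listed start is 1189 bases for HK2, 39060 for PGK1, 1337 for GAPDH and 57998 for PFKFB3.
HK2: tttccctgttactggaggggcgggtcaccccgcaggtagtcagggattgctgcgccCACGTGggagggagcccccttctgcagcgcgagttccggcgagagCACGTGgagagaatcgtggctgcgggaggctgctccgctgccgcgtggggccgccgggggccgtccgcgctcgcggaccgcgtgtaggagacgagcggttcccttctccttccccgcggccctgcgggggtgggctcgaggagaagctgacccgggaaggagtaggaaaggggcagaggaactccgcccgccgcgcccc
PGK1: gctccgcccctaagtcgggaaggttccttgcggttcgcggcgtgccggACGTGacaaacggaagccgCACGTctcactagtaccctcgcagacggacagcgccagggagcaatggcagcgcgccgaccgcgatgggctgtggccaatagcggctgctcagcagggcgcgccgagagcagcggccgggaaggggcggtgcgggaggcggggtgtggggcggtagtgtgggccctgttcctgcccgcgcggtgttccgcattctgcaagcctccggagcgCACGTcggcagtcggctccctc
GAPDH: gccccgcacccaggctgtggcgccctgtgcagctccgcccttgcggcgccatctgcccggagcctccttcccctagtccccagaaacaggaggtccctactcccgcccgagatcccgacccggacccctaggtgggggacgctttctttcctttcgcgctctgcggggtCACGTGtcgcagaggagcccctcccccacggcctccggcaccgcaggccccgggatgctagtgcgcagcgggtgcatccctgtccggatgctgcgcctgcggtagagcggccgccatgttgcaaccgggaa
PFKFB3: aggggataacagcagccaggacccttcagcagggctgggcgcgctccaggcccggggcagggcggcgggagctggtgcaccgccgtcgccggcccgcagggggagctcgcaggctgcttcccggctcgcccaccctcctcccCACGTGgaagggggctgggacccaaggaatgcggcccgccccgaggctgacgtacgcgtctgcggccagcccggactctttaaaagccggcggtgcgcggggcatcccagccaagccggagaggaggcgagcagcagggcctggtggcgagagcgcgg

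Genes of the pathway outside the 34 went in both directions. Of 38 further glycolysis and pyruvate genes, 29 could be tested, with 5 higher and 5 lower (34.5% called, against the 27.5% background, median log2 fold change 0.14). SLC16A4, a monocarboxylate transporter family gene, had 84.5 and 89.7 CPM with SAMD9, against 41.8 and 34.6 CPM with empty vector (1.19, SE 0.09, adjusted p = 2.4e-10). SLC2A12, the glucose transporter GLUT12, had 166 and 128 counts with SAMD9, against 8 and 1 with empty vector (4.96, SE 0.47, adjusted p = 1.77e-08). Its fold change rested on few empty vector counts, and was 7.05 without empty vector replicate 1 and 4.11 without empty vector replicate 2. It was the largest rise in any list, at a level with SAMD9 of 0.998 CPM per kilobase, against 48.4 for SLC2A1. HKDC1 was the third gene by p, and its fall is given above. Over all genes tested, total-count scaling gave 9.96% higher and 28.5% lower. Only 3 genes of this list were higher without SAMD9 replicate 1 or without SAMD9 replicate 2, and under total-count scaling 2 were higher and 10 lower.

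The pentose phosphate pathway, which branches off glucose 6-phosphate to make NADPH, had 2 genes higher and 1 lower of 9 tested (33.3% called, against 27.5% of all genes, median 0.11). PGLS, a lactonase of the pathway, had 48.6 and 43.4 CPM with SAMD9, against 36.4 and 39.3 CPM with empty vector (0.28, SE 0.09, adjusted p = 0.0211). RBKS, ribokinase, had 2.06 and 2.83 CPM with SAMD9, against 5.21 and 3.14 CPM with empty vector (-0.78, SE 0.28, adjusted p = 0.0423). Groups did not overlap for either gene, but neither was called in every alternative. The RBKS call was lost with DESeq2, with the replicate number as a block and without SAMD9 replicate 1 or empty vector replicate 1. The PGLS call was lost without either of those libraries and under total-count or upper-quartile scaling. Without empty vector replicate 2, 4 genes were higher.

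In gluconeogenesis and glycogen metabolism, 2 genes were higher and 4 lower of 19 tested (31.6% called, against 27.5% of all genes, median -0.11). The 3 with the lowest p encode subunits that bring a phosphatase to glycogen, PPP1R3C (-1.74, SE 0.19), PPP1R3E (-0.83, SE 0.14) and PPP1R3B (-0.40, SE 0.12), whereas PPP1R3D of the same family was higher (0.48, SE 0.18, adjusted p = 0.0432). PPP1R3C had 145 and 74 counts with SAMD9, against 345 and 364 counts with empty vector. Lower calls in this list numbered 2 without SAMD9 replicate 2, where PPP1R3B was lost (adjusted p = 0.165), and 6 without empty vector replicate 2. No gene was called higher without SAMD9 replicate 2, and 1 was without SAMD9 replicate 1 or empty vector replicate 1.

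The citric acid cycle list had 3 of 22 genes higher and 0 lower (13.6% called, against 27.5% of all genes, median 0.06). ACO1, the cytosolic aconitase that doubles as an iron sensor, rose by 0.65 (SE 0.08, adjusted p = 1.09e-06), with OGDH at 0.26 (SE 0.06) and IDH2 at 0.27 (SE 0.09). IDH2 was lost under both other edgeR scalings and without either SAMD9 library or empty vector replicate 1, and OGDH under total-count scaling. By DESeq2 too, 0 were lower, and 0 at an unadjusted p below 0.05 in edgeR, while total-count scaling gave 8 lower and leaving out empty vector replicate 1 gave 1. Over all genes tested, 28.5% were lower under total-count scaling. In the serine and one-carbon branch, which draws on a glycolytic intermediate, 3 of 8 genes fell and 0 rose (37.5% called, against 27.5% of all genes). In that branch 1 gene was higher at an unadjusted edgeR p below 0.05. DESeq2 called 2 lower and 0 higher. They are the 3 enzymes of serine synthesis, PSAT1 (-0.38, SE 0.07), PSPH (-0.49, SE 0.09) and PHGDH (-0.23, SE 0.08). PSAT1 and PSPH were called in all alternatives, while PHGDH, at an adjusted p of 0.0480, was lost in 7 of 9. Without empty vector replicate 2, 1 gene of this list was higher.

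Among 30 tested regulators of glycolytic genes, 6 were higher and 8 lower (46.7% called, against 27.5% of all genes, median -0.08). MAX, the partner of MYC, had 67.0 and 73.5 CPM with SAMD9, against 41.7 and 36.7 CPM with empty vector (0.84, SE 0.09, adjusted p = 6.01e-08). TXNIP, which restrains glucose uptake, had 153 and 170.0 CPM with SAMD9, against 108 and 81.5 CPM with empty vector (0.77, SE 0.09, adjusted p = 6.88e-07). HIF1A, the hypoxia-inducible factor subunit, had 807 and 823 CPM with SAMD9, against 623 and 594.5 CPM with empty vector (0.42, SE 0.05, adjusted p = 1.66e-06). For MAX, TXNIP and HIF1A, both SAMD9 libraries lay above both empty vector libraries, and the 3 calls held under all 9 alternatives. Under total-count scaling, 5 regulators were higher and 16 lower, against 9.96% and 28.5% of all genes. RNA levels do not give the level of HIF1A protein, which is controlled largely by its decay and was not measured here.

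**Figure D5:**
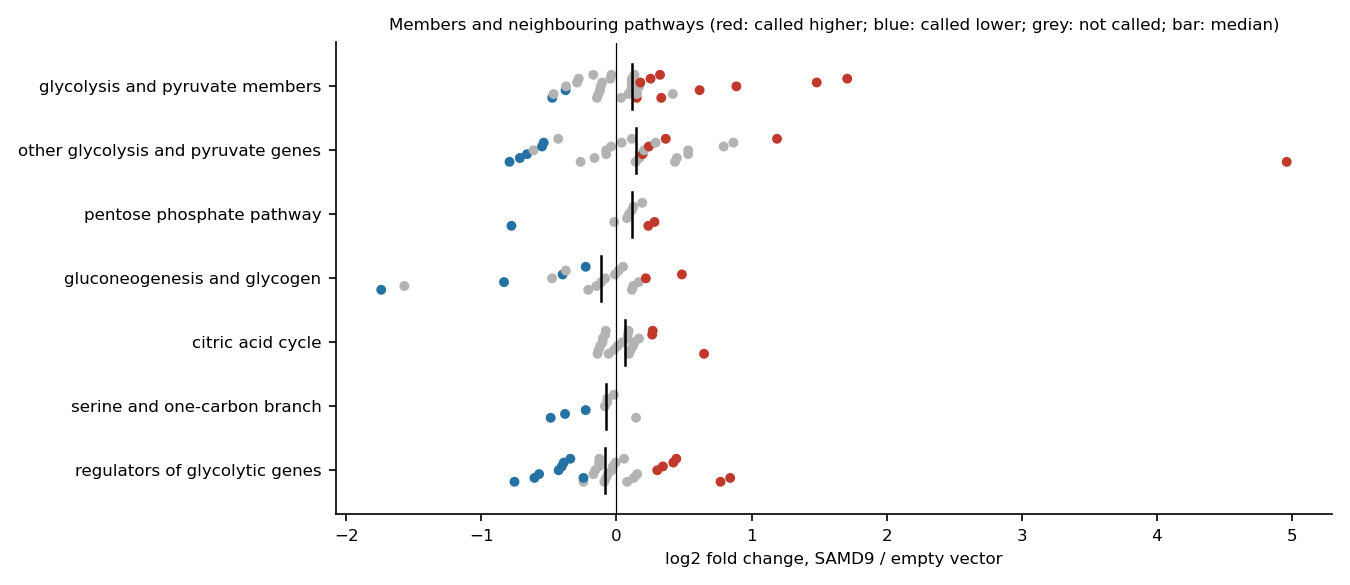
Log2 fold change of each tested gene in the members and 6 neighbouring lists, with called genes in colour and a bar at each list's median. Medians lie between -0.11 and 0.14, and SLC2A12 at 4.96 lies far outside the rest.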

How the data were processed

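RNA from 4 A549 libraries had been extracted with Trizol and depleted of ribosomal RNA with KAPA RiboErase, per the labels' protocols. Each deposited file gave raw counts per Ensembl gene. The CPM and RPKM values deposited beside them had been computed by the authors from these counts, and recomputing them gave the same numbers within 5.2e-12 CPM and 3.6e-11 RPKM, so neither was used in a test. The submitters' processing notes name bcl2fastq, STAR 2.5.1a, Subread featureCounts 1.4.6-p5 and GRCh38. Annotation release, parameters and strandedness were not given in the sources used here, so reads of genes overlapping on opposite strands are treated as inseparable. Even numbers made up 72.9% of the counts between 1 and 20, but 49.7% of those over 1000, so low counts may not be independent reads and are less precise than they look.

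Symbols were looked up by Ensembl ID in a supplied name table, then GENCODE 29, and coordinates are those of the files. Genes were kept with filterByExpr (minimum count 10, total 15), which left 19814, all 34 members among them. Counts were scaled by TMM and tested with edgeR 4.0.16 in R 4.3.3 (quasi-likelihood F-test, no covariate, Benjamini-Hochberg over all genes tested, called below 0.05). SE is the absolute log2 fold change over the square root of F. Levels are TMM-normalised CPM and cover counting and replicate error only through the 2 libraries of each group. Levels per kilobase use the listed gene length, the union of exons, which understates genes with long minor exons. Alternatives were total-count and upper-quartile scaling, DESeq2 1.42.0, no filter, the replicate number as a block and each library left out. Counting HKDC1 with the hexokinases was chosen after seeing the data. The scripts' tests were checked on simulated counts. Shared 31-base words were counted in GENCODE 29 transcripts.

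The members, gene lists and tests were chosen with earlier results of these data known. Values in every library are given for members called at 0.5 or more on the absolute log2 scale, for the 3 highest per kilobase and, beyond that rule, for other called members and main isoforms; of each other list the 3 genes with the lowest p are named (1 item is not reported here), and others (HKDC1 aside) were named after their values were seen.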

Additional observations from a re-analysis of the deposited data

How the results depend on the processing

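Total-count scaling moved most counts: over all genes 1974 were higher and 5653 lower, and of the members 5 were higher and 11 lower, with a median of -0.0769. The other glycolysis list then had 2 higher and 10 lower, the pentose phosphate list 0 and 2, gluconeogenesis and glycogen 0 and 7, the citric acid cycle 1 and 8, the serine branch 7 lower and the regulators 16 lower. The sign turned for HK1 (-0.0744), GPI (-0.10), PFKL (-0.0188), PFKP (-0.0731), TPI1 (-0.0358), GAPDH (-0.0383), PGK1 (-0.0115), ENO1 (-0.0788), LDHA (-0.075), PDK2 (-0.0537), PDK4 (-0.0367) and PDHA1 (-0.15), since this setting lowers every value by about the same amount. Upper-quartile scaling gave 5 lower members, a median of 0.0468, 3 higher in the other glycolysis list, 1 in the pentose phosphate list, 0 in gluconeogenesis and glycogen, 2 lower in the citric acid cycle, and PDHA1 at -0.031. DESeq2 gave 1 higher in gluconeogenesis and glycogen and 0 lower in the pentose phosphate list, and no filter gave 1 higher in gluconeogenesis and glycogen. The replicate numbers do not pair the libraries by any label, and deviations of same-numbered libraries were uncorrelated (r = 0.000813 over 13469 genes); with the replicate number as a block, 9 members were higher and 2 lower, and the pentose phosphate list had 0 lower. Leaving out a library gave between 1466 and 2279 lower genes in all, 7 to 16 higher and 1 to 3 lower members, a member median of 0.0597 to 0.1354, 3 to 5 higher in the other glycolysis list, 1 to 4 higher and 0 to 1 lower in the pentose phosphate list, 0 to 2 higher and 2 to 6 lower in gluconeogenesis and glycogen, 0 to 1 lower in the citric acid cycle and 0 to 1 higher in the serine branch. The sign turned within the ranges of HK1 (-0.0027 to 0.25), PFKM (-0.0841 to 0.003), LDHB (-0.0741 to 0.009), PDK1 (-0.56 to 0.0694), PDK2 (-0.16 to 0.37) and PDHA1 (-0.0194 to 0.10). Without length correction the ALDOC share differed by -0.0409 percentage points, against -0.0857, and with HKDC1 counted in, the HK2 share by 3.59, against 12.7. The cause of the changes other than under total-count scaling was not tested.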

Other observations

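The members GAPDH, TPI1, ENO2 and SLC2A3 lie close together on the short arm of chromosome 12. GAPDH (6533927 to 6538374), TPI1 (6867119 to 6870948), ENO2 (6913745 to 6923698) and SLC2A3 (7919230 to 7936275) had log2 fold changes of 0.15, 0.15, -0.12 and -0.17. GAPDH alone of these was called, and under total-count scaling the values were -0.0383, -0.0358, -0.31 and -0.36. SPSB2, which shares 14 exonic bases with TPI1 on the opposite strand, had 551 and 445 counts with SAMD9, against 882 and 1023 with empty vector. The 6 LDHA pseudogenes held between 2.66% and 3.08% as many counts as LDHA in every library, and the 4 TPI1 pseudogenes between 2.81% and 3.29% as many as TPI1.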
